A study of Mus musculus with 16 samples.

Results

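The genes of the respiratory chain and ATP synthase were taken by symbol from the protein-coding genes of the mm10 RefSeq annotation. They were all genes whose symbol begins with Nduf, Uqcr or Atp5, the genes Sdha to Sdhd, and genes named Cox followed by 4, 5, 6, 7 or 8. This gave 96 of 21887 genes: 41 of complex I, 8 assembly factors of complex I (Ndufaf), 4 of complex II, 8 of complex III, 18 of complex IV and 17 of ATP synthase. Genes were assigned to complexes by symbol alone, so these numbers need not equal the true subunit genes of each complex. Breaks had been mapped by END-seq, a sequencing assay of the DNA ends at double-strand breaks. The cells were cardiac myocytes obtained by Langendorff perfusion, from 3 WT (wild-type) hearts and 3 hearts of Myh6-Cre:LmnaF/F mice. In the second group, called cKO here, the myocyte promoter of Myh6 drives Cre, which deletes floxed Lmna and with it A-type lamins of the nuclear envelope. The labels give no age or sex and no group with Cre and intact Lmna, so Cre and the deletion cannot be told apart. The series asks whether stress from transcription is a source of such breaks. A gene counts as hit in a library if any peak touches the gene or the 1000 bp on either side of it.

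The respiratory chain passes electrons from NADH and succinate to oxygen through complexes I to IV of the inner mitochondrial membrane, and pumps protons as it does so. ATP synthase uses the return of these protons to make ATP. The heart depends on this route for nearly all of its ATP, and many of the genes are among the most strongly transcribed nuclear genes of cardiac myocytes. The symbol rule takes no account of expression, so not every member need be strongly transcribed in these cells. Most are short. The members had a median length of 7228 bp, from 471 to 106064 bp, against 17169 bp for all protein-coding genes.

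List lengths ran from 1345 peaks (WT 1) to 15458 (WT 2) among WT mice and from 13630 (cKO 2) to 29743 (cKO 1) among cKO mice. Depth is unknown, because the files carry no read totals, and a gene without a peak may still have had breaks below detection. The list labelled cKO 1 has peak names beginning WT-4, as has that of WT 3. The counts in all cKO libraries and the genotype differences are therefore also given without cKO 1. Counts in at least 1 library, by length class, for other gene lists and for markers are given with it alone. The lists of cKO 1 and WT 3 were not copies of each other, since 57 peaks had the same start and end in both, 0.685% of those of WT 3. Peak lists hold no expression values, so the cell type label was not checked against marker levels.

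Of the 96 genes, 15 had a peak in at least 1 of the 6 libraries, and 81 had none. Among all protein-coding genes 38.3% met this condition, and 20.3 of 96 would do so at the rate of genes of the same length. The expectation is the sum, over the members, of the share of other genes hit in the same one of 20 length bins. In at least 2 of 3 cKO libraries 12 genes were hit, where the background was 23.1% of all genes and the length-matched expectation 9.31. All 12 had a peak in every cKO library, against a background of 14.7% of all genes and a length-matched expectation of 5.17. That count was chosen after its value was seen. Over all genes, 63.3% of the 5066 hit in at least 2 cKO libraries were hit in all 3. Without cKO 1, 12 genes were hit in both remaining cKO libraries, with 5.26 expected, and without cKO 2 it was 12 with 8.67 expected. The 12 could not change here, because the same 12 genes were hit in at least 2 and in all 3 cKO libraries. Only the expectation was free to move. The 15 members hit in at least 1 library were thus fewer than the length-matched number, and the 12 hit in all 3 cKO libraries together were more. Single libraries, given below, lay on either side of their expectation.

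**Figure D1:**
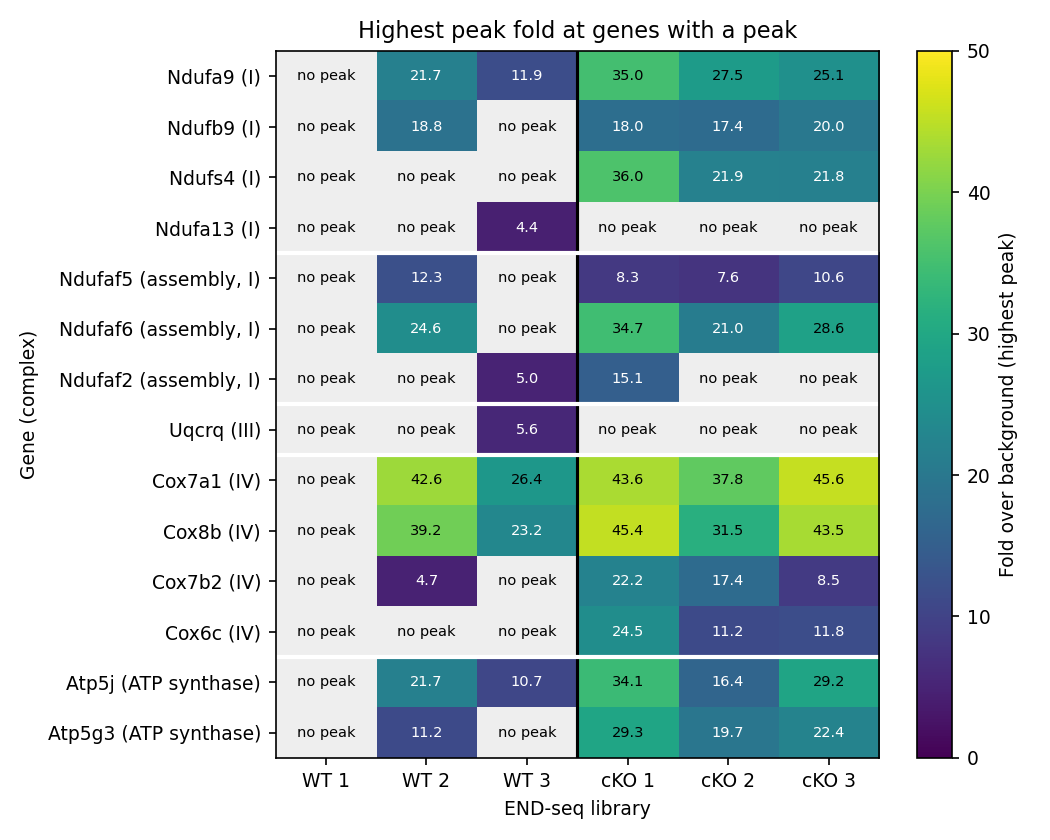
Highest fold over background of any peak at 14 genes with a peak (rows, ordered by complex) in each END-seq library (columns, WT left and cKO right of the line). Colour and number give the authors' fold, and grey cells have no peak. Cox7a1 and Cox8b have the highest values, and 11 of the genes drawn have a peak in all 3 cKO libraries.

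Cox7a1 and Cox8b, which encode the heart and skeletal muscle isoforms of complex IV subunits, carried the strongest sites. Folds below are the authors' values for a peak over its own library's background, so they describe a site within its list and were not compared between genotypes. At Cox7a1 (chromosome 7, 30184171 to 30186030, mm10) the fold was 42.6 in WT 2, 26.4 in WT 3, 43.6 in cKO 1, 37.8 in cKO 2 and 45.6 in cKO 3. WT 1 had no peak there, and the other 5 folds lay at percentiles 87.5 to 96.2 of their own lists. The site ended 851 to 884 bp before the gene, upstream of its start, and overlapped no other protein-coding gene. At Cox8b (chromosome 7, 140898942 to 140900446) the fold was 39.2 in WT 2, 23.2 in WT 3, 45.4 in cKO 1, 31.5 in cKO 2 and 43.5 in cKO 3. These lay at percentiles 83.9 to 95.1, and WT 1 again had no peak. This site was inside the gene, with summits 1200 to 1209 bp downstream of the start.

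Their paralogs had no peak in any library. Cox7a2, the broadly used form of the Cox7a subunit, Cox7a2l, Cox8a, the broadly used form of the Cox8 subunit, and Cox8c were all without one. The heart isoform gene Cox6a2 and its broadly used counterpart Cox6a1 had none either, nor did Cox4i1 and Cox4i2. Recurrent sites were thus at 2 of these 3 heart isoform genes, Cox7a1 (1860 bp) and Cox8b (1505 bp), and not at Cox6a2 (932 bp). The lists do not measure transcription, so how a gene's own output relates to its site was not tested.

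The start windows of these 2 genes, from 250 bases before to 50 after the start, are shown because their sites were the strongest and lie on opposite sides of the start. No peak of any library overlapped either window. They were read from RefSeq (GRCm38.p6), in which 78 of the 96 members had a window, and capitals mark a TATA box.
Cox7a1, chr7:30183921-30184220, plus strand: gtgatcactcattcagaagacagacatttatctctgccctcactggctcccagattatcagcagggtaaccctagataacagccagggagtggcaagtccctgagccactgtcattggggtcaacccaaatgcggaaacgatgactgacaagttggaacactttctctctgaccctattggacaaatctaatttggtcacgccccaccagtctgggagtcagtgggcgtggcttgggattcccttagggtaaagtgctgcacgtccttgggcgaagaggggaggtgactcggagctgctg
Cox8b, chr7:140900397-140900696, minus strand: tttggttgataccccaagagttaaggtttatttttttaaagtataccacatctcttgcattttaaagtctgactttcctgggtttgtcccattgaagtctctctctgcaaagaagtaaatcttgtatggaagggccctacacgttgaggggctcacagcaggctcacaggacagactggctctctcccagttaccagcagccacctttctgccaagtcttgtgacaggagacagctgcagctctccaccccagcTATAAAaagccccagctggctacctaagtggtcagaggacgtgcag

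Windows of all members were searched on both strands for 3 motifs. The 10-letter core of the NRF-1 site, bound by a regulator of respiratory genes, was in the windows of 19 of 78 members (24.4%) and of 7.17% of 17492 genes. The ETS core CCGGAAG, of the kind bound by the respiratory gene regulator GABP, was in 19 of 78 (24.4%) and 12.9%. TATAAA was in 8 of 78 (10.3%) and 14.8%. Neither window above held the first or the second motif. These are letter matches and do not show binding.

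Peaks at the starts themselves were rare among genes with a start window, which 18 members, Uqcrq among them, lacked. A peak overlapped the start window of 466 of 17492 genes (2.66%) and of 1 of 78 members (1.28%), Ndufaf2, which encodes an assembly factor of complex I. Its site was found in WT 3 and cKO 1 alone, the 2 lists whose peak names share a prefix, with folds of 5.01 and 15.1. It lies 118 to 122 bp upstream of the annotated span of Ndufaf2 on chromosome 13 and inside the span of the DNA repair gene Ercc8, which starts next to Ndufaf2. The window is shown because it is the one a peak reached, and the 106 capitals mark the bases that the peaks covered (108158770 to 108158875).
Ndufaf2, chr13:108158576-108158875, minus strand: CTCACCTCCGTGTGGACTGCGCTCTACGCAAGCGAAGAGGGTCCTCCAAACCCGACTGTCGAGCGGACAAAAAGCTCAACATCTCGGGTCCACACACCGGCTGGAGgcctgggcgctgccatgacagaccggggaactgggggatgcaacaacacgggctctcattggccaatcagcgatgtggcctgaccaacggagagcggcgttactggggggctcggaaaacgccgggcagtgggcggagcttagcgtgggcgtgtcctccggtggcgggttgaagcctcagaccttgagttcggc

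Of the 41 genes counted by symbol as subunits of complex I, which takes electrons from NADH, 5 were hit. Counts by complex, here and below, are of genes with a peak in at least 1 library. Among all protein-coding genes 38.3% met this condition, and the complexes were not compared with each other. Ndufa9, which encodes an accessory subunit near the quinone site (chromosome 6, 126821863 to 126849144), had 1 peak in every library but WT 1. The fold was 21.7 in WT 2, 11.9 in WT 3, 35.0 in cKO 1, 27.5 in cKO 2 and 25.1 in cKO 3, at percentiles 62.7 to 86.2 of their own lists. The site lay past the far end of the gene, 4 to 48 bp outside the span, with summits 27488 to 27518 bp downstream of the start. Ndufb9, an accessory subunit of the membrane arm (chromosome 15, 58933801 to 58939516), had a peak inside the gene in WT 2 with a fold of 18.8. In cKO 1, cKO 2 and cKO 3 it was 18.0, 17.4 and 20, and WT 1 and WT 3 had no peak. The cKO folds had a mean of 18.5 ± 1.36 (SD, n = 3), and the 4 folds lay at percentiles 53.6 to 68.9 of their own lists.

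Ndufs4, an accessory subunit whose loss causes mitochondrial disease (chromosome 13, 114287795 to 114388094), had a peak in the 3 cKO libraries and in no WT library. Its fold was 36.0 in cKO 1, 21.9 in cKO 2 and 21.8 in cKO 3, a mean of 26.6 ± 8.17 (SD, n = 3). The site lay deep in this long gene, with summits 51389 to 51395 bp from the start. Ndufa13 (also known as GRIM-19) had 1 weak peak in WT 3 alone, with a fold of 4.38, and that peak lies in the neighbouring gene Tssk6.

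Of the 8 assembly factor genes of complex I, 3 were hit. Ndufaf6 (chromosome 4, 11048991 to 11076237) had a site in WT 2 with a fold of 24.6, in cKO 1 with 34.7, in cKO 2 with 21.0 and in cKO 3 with 28.6. These lay at percentiles 63.1 to 86.0 of their own lists. A second site in the gene was seen in cKO 1 and cKO 2 alone, with folds of 19.3 and 12.3. Ndufaf5, which encodes an enzyme that modifies a core subunit of complex I (chromosome 2, 140170584 to 140218965), had a peak in WT 2 and in all 3 cKO libraries. Its folds were low, 12.3 in WT 2 and 8.27, 7.60 and 10.6 in cKO, and all 4 lay below the median of their own lists, at percentiles from 20.8 to 46.5. The third was Ndufaf2, described above.

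None of the 4 genes of complex II, the succinate dehydrogenase of the tricarboxylic acid cycle, had a peak. Their median length was 19706 bp, and no expectation was computed for single complexes. Of the 8 genes of complex III, Uqcrq alone was hit, in WT 3 with a fold of 5.63. That peak (53430826 to 53431214) overlapped the high-coordinate edge of the Uqcrq span, at 53430831, and extended into the adjoining gene Gdf9. Uqcrq had no start window, so the peak was not placed relative to the start of the gene.

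In complex IV, Cox6c and Cox7b2 were hit besides Cox7a1 and Cox8b, 4 of 18 in all. Cox6c (chromosome 15, 35931976 to 35938246) had a peak inside the gene in the 3 cKO libraries and in no WT library. The fold was 24.5 in cKO 1, 11.2 in cKO 2 and 11.8 in cKO 3, at percentiles 35.0 to 71.8. Cox7b2, a paralog of Cox7b (chromosome 5, 71442823 to 71548205), is the second longest member. Its site had a fold of 22.2 in cKO 1, 17.4 in cKO 2 and 8.51 in cKO 3. In WT 2 a weak peak with a fold of 4.70 overlapped this site but began 117 bp further along, and a separate peak with a fold of 7.01 was seen in cKO 2 alone. The single Cox7b gene, on chromosome X, had no peak.

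Of the 17 ATP synthase genes, Atp5j and Atp5g3 were hit. Atp5j, which encodes a coupling factor of the stalk (chromosome 16, 84827871 to 84835857), had a site in every library but WT 1. Its fold was 21.7 in WT 2, 10.7 in WT 3, 34.1 in cKO 1, 16.4 in cKO 2 and 29.2 in cKO 3, at percentiles 50.6 to 85.4. The site lies 204 bp outside the annotated span of Atp5j and inside Gabpa, the neighbouring gene that encodes the DNA-binding subunit of GABP. Atp5g3, one of several genes for the same rotor-ring subunit c (chromosome 2, 73908447 to 73912464), had a site inside the gene. Its fold was 11.2 in WT 2, 29.3 in cKO 1, 19.7 in cKO 2 and 22.4 in cKO 3, at percentiles 41.7 to 79.4, and WT 1 and WT 3 had no peak. Atp5g1 and Atp5g2, which encode the same mature protein, had none, and neither had Atp5b, the gene of the catalytic beta subunit.

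The longest members without a peak were Ndufa10 (34340 bp), Ndufs1 (33231 bp), Sdha (27986 bp), Atp5c1 (24481 bp) and Uqcrc2 (24335 bp). Ndufs1 and Sdha encode catalytic subunits of complexes I and II, Atp5c1 the central shaft of ATP synthase, and Uqcrc2 a core protein of complex III. Members with a peak had a median length of 8396 bp and those without 7131 bp. For comparison, all genes with a peak had a median of 47911 bp.

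Taken by site, the 58 peaks at members fell into 18 sites, of which 10 were found in 4 or 5 libraries, 4 in 1 library and 0 in all 6. Inside a member's span were 12 sites and outside it 6, and 4 overlapped another protein-coding gene. The peaks' median percentile by fold within their own list was 66.6, 18 of 58 lay below the median, and 7 lay in the top 10%. Of the 10 sites with 1 peak in each of 4 or 5 libraries, 6 had an edge at the same base in every library that had the peak. At Atp5j all 5 peaks began at base 84836061, and at Ndufa9 all 5 began at 126821620. At Ndufb9 all 4 ended at 58937455. At these 6 sites the other edge moved by 37 to 100 bp. Such edges were general in these lists, since 79.5% of the 7517 regions with 1 peak in each of 4 or 5 libraries had one. Summits within a member site spanned a median of 15.5 bp between libraries, and 13.0 bp over those 7517 regions.

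**Figure D2:**
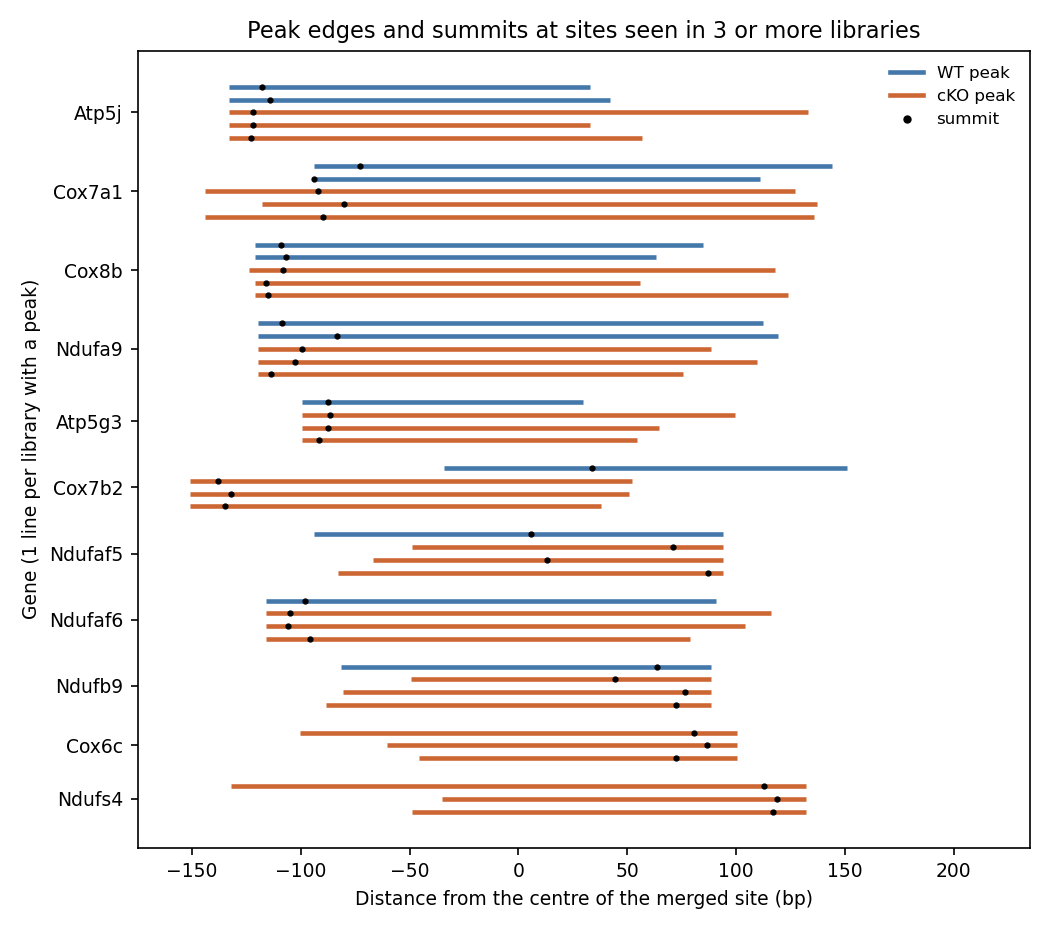
Extent of each peak (lines, WT blue and cKO orange) and its summit (dot) at 11 member sites found in 3 or more libraries, in bp from the centre of the merged site. At most sites the lines start or end at 1 position in all libraries with a peak, while the other edge varies. The WT 2 peak at Cox7b2 is shifted by 117 bp at its start.

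Between genotypes, more of these genes were hit in cKO than in WT libraries, along with longer peak lists. WT 1 had 0 members hit, WT 2 had 10 and WT 3 had 7. cKO 1 had 13, and cKO 2 and cKO 3 had 12 each, so the groups did not overlap. The means were 5.67 ± 5.13 and 12.3 ± 0.577 (SD, n = 3 each), a difference of 6.67. Of all protein-coding genes, WT 1 hit 1.63%, WT 2 20.2% and WT 3 12.1%, and cKO 1 hit 31.6%, cKO 2 17.0% and cKO 3 24.9%, so on this scale the groups overlapped. Genes of the same length gave expectations of 0.35, 8.83 and 5.08 in WT and 15.6, 6.28 and 10.7 in cKO. Members hit over this expectation came to 0, 1.13 and 1.38 in WT and 0.833, 1.91 and 1.12 in cKO. On that scale the groups overlapped, with means of 0.836 ± 0.735 and 1.29 ± 0.557 (SD, n = 3 each). The difference in the ratio was 0.452. Without WT 1, whose short list gave an expectation below 1 gene, the difference in this ratio was 0.0335, and the difference in genes hit was 3.83. Without cKO 1 the ratio differed by 0.679 and the genes hit by 6.33. Without WT 1 and with the remaining 5 lists each cut to their 8320 peaks of lowest q, the genes hit differed by 2.5. On the ratio cKO 2 stood highest, with 12 members hit from a list shorter than that of WT 2, in which 10 were hit.

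**Figure D3:**
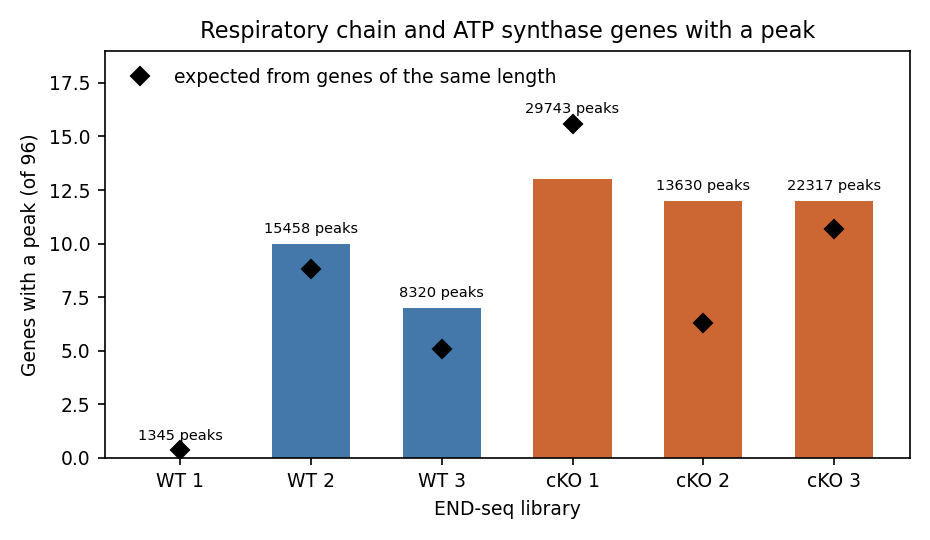
Number of the 96 genes with a peak in each END-seq library (bars, WT blue and cKO orange), with the number expected from genes of the same length in that library's own list (diamonds) and the length of the list (text). The cKO bars reach 13, 12 and 12 genes, and that of cKO 1 lies under its expectation of 15.6.

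Peaks per Mb gave a like picture. In member spans with flanks, 1.37 Mb in all, WT 1 had 0 peaks per Mb, WT 2 7.31 and WT 3 5.11. The cKO libraries had 11.0, 10.2 and 8.77. In the spans of other genes the densities were 0.368, 6.34 and 3.14 in WT and 12.3, 5.20 and 8.92 in cKO. Members were the denser of the 2 in WT 2, WT 3 and cKO 2 and the less dense in WT 1, cKO 1 and cKO 3. The mean density at members was 5.85 peaks per Mb higher in cKO than in WT, and 5.34 higher without cKO 1. At other genes it was 5.52 higher, and 3.78 higher without cKO 1. Without WT 1 the differences were 3.78 at members and 4.07 at other genes.

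Ndufs4 and Cox6c were the 2 members with a peak in all 3 cKO libraries and in no WT library, where the background was 1.43% of all genes and the length-matched expectation 0.569. No member had the reverse pattern, for which the background was 0.00914% of all genes. An exact permutation test of peak number over the 20 assignments of 3 and 3 libraries was run on all 8383 genes with a peak. It gave an exact p of 0.1 for Ndufs4 and Cox6c, each with a mean of 1 peak in cKO and 0 in WT, the smallest that 3 mice against 3 allow. The Benjamini-Hochberg adjusted p was 1 for every gene, and 0 genes had an unadjusted exact p under 0.05. Leaving out WT 2 raised the number of members in all cKO and no WT libraries to 8, since 6 other members had their sole WT peak in WT 2. Without cKO 1 it stayed at 2.

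In at least 2 of 3 WT libraries 4 members were hit, namely Atp5j, Cox7a1, Cox8b and Ndufa9, where the background was 9.56% of all genes and the length-matched expectation 3.40. The same 4 made up the members hit in at least 5 of 6 libraries (background 8.2%, expectation 2.64). No member was hit in all 6, a condition met by 1.25% of genes, because WT 1 had no peak at any of them. The 4 WT calls rested on WT 2 and WT 3, and none was left without WT 2 or without WT 3.

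Set apart by 3 wide length classes, members under 5 kb had a higher share of hits than other genes of that class. In the 2 longer classes members had a lower share. Under 5 kb, 3 of 31 members (9.68%) and 161 of 5003 other genes (3.22%) had a peak in 2 or more cKO libraries. The 3 were Atp5g3, Cox7a1 and Cox8b. From 5 to 20 kb it was 4 of 51 (7.84%) against 10.5%, and above 20 kb 5 of 14 (35.7%) against 41.7%. Lengths were not matched within a class. The longest member had 106064 bp, while other genes above 20 kb ran longer, such as Ryr2 with 553847 bp. Over the 20 narrower length bins, the same call gave 12 members with 9.31 expected. The part of length in the class differences was not tested. These shares rest on few members and are given without a test.

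**Figure D4:**
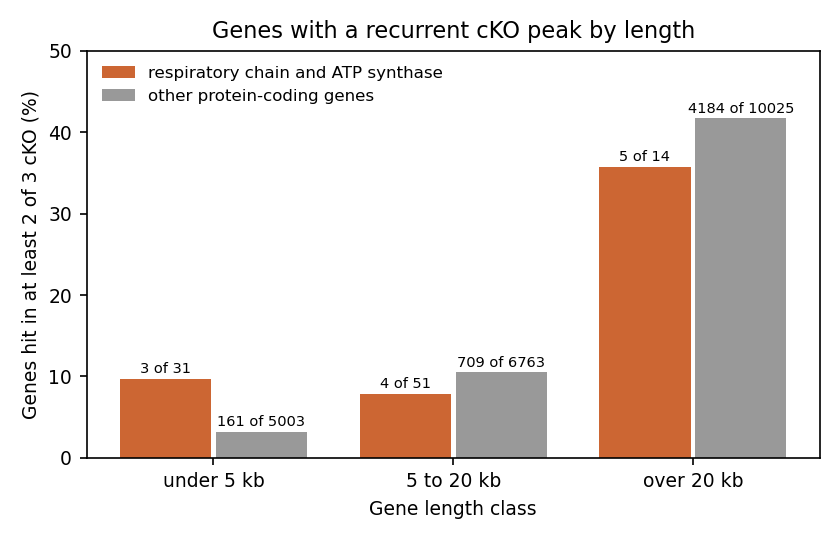
Share of genes with a peak in at least 2 of 3 cKO libraries by gene length, for respiratory chain and ATP synthase genes (orange) and all other protein-coding genes (grey), with counts above the bars. Members under 5 kb stand at 9.68% and other genes of that class at 3.22%, while the order is the other way round in both longer classes. Lengths are not matched within a class, and the longest class has no upper limit.

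Other genes of the same route, and of other short and strongly transcribed groups, were counted in the same way, with the number hit in at least 2 of 3 cKO libraries and the length-matched expectation. Of 40 electron carriers and assembly factors outside the members, 7 were hit (6.91 expected), among them Foxred1, Nubpl and Sco2, which encode assembly factors of complexes I and IV. Tricarboxylic acid cycle genes were hit in 4 of 13 (3.24 expected), with Ogdh, Suclg2 and Dlst. Of 8 adenine nucleotide and phosphate carrier and porin genes, Vdac2 and Vdac3, both encoding outer membrane porins, were hit (0.934 expected). Sarcomere and cytosolic heart genes, with a median length of 6425 bp, were hit in 6 of 20 cases (1.84 expected). Csrp3, Mb and Tnnc1, which encode muscle LIM protein, myoglobin and cardiac troponin C, each had 1 peak in every library but WT 1. Cytosolic ribosomal protein genes, which are short and transcribed in all cells, were hit in 4 of 81 (3.83 expected), Rpl14 and Rpl37rt among them, while Rps23 had peaks in WT 2, WT 3 and cKO 1. Mitochondrial ribosomal protein genes were hit in 9 of 78 (8.22 expected), with Mrpl15, Mrpl3 and Mrps6. The corresponding WT counts for these 6 lists, in the same order, were 5, 2, 2, 4, 1 and 3 genes, with 2.75, 1.41, 0.336, 0.672, 1.52 and 3.05 expected.

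**Figure D5:**
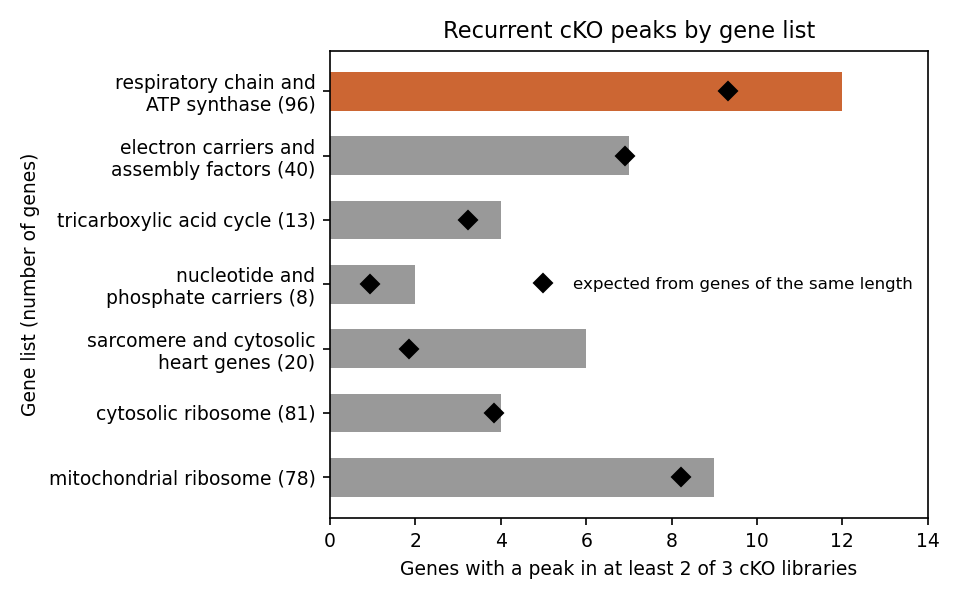
Number of genes with a peak in at least 2 of 3 cKO libraries (bars) for the respiratory chain and ATP synthase genes (orange) and 6 other gene lists (grey), with the number expected from genes of the same length (diamonds). The members stand at 12 with 9.31 expected, and the ribosomal lists lie close to their expectation.

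Marker genes of cell types were counted by the same rule for cKO. Of 8 markers of cardiac myocytes 4 were hit (2.55 expected), Ryr2, Tnnt2 and Ttn among them. The counts were 2 of 8 for fibroblasts (1.67 expected; Postn and Pdgfra), 2 of 8 for endothelium (3.23; Pecam1 and Vwf) and 1 of 8 for immune cells (2.18; Ptprc). In at least 2 WT libraries the counts were 3, 0, 1 and 1, with 1.47, 0.553, 1.17 and 0.811 expected. The part of other cell types in the peaks at members was not tested.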

How the data were processed

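END-seq peak lists of 3 WT and 3 cKO libraries were used, grouped by title. Peaks were called per library by the authors, per the file headers and peak names. The submitters' processing notes list FastQC, SEACR, DiffBind and mm10; no aligner is named there. The deposited columns hold a linear fold ratio over background, −log10 p and q values, the caller's score and the summit offset. Of 91554 peaks, 741 lay outside chromosomes 1 to 19, X and Y and were dropped. All had a q of at most 0.01. Genes came from RefSeq GRCm38.p6, overlap needed 1 bp, and coordinates are 1-based. Lamin A intervals, on another build, were not used here. Each library is 1 mouse, by title and design text.

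Members and lists were chosen with earlier results of these data known, so no p is given over them. Every member with a peak is named except 1, which is counted but not reported here, as are the 5 longest without one and up to 3 genes per other list. Overlap and expectation were tested on simulated data. Scripts ran in Python 3.11.15 with matplotlib 3.10.9, pandas 2.3.3 and numpy 2.4.6.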

Additional observations from a re-analysis of the deposited data

How the results depend on the processing

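The alternatives were lists shortened to their peaks of lowest q, a stricter q limit of 0.00001, and flanks of 0 and 10000 bp. Others were the summit in place of overlap, subunits alone, autosomes alone, 100 length bins, bins within chromosome class, and each library left out. Counting only peaks that overlap no other gene, and the count of genes hit in all cKO libraries with its expectation, were added after seeing the data. Of 138 alternative values, 121 stayed within 1.5 times a count or expectation or within the replicate spread, and 17 moved further. Part of the 121 could not move. Counts over cKO libraries alone do not change when a WT library is left out, nor the reverse. Counts of members hit do not change on autosomes alone, since no member on chromosome X had a peak. The count in all WT and no cKO libraries was 0 in every setting. The 121 is therefore not a measure of robustness. With every list shortened to 1345 peaks, 1 gene was left in at least 1 library, in at least 2 cKO and in at least 2 WT libraries (Cox7a1), 0 in all cKO libraries (0.484 expected) or in all cKO and no WT, and the difference per library was 0. Without WT 1 and with lists of 8320 peaks, the difference was 2.5, and 8 genes were hit in all cKO libraries with 3.45 expected. With a flank of 10000 bp, 16 genes were hit in all 3 cKO libraries with 11.7 expected, and the difference was 13.7. At that flank 40 were hit in at least 1 library and 21 in at least 2 cKO libraries. No expectation was computed there for the 40 or the 21. Members hit over expectation had a mean of 1.07 over the 6 libraries. Within the gene span alone 1 gene was hit in at least 2 WT libraries. Leaving out each library gave 0 to 4 genes in at least 2 WT, 2 to 8 in all cKO and no WT, 12 throughout in all cKO with 5.17 to 8.67 expected (8.67 without cKO 2), and a difference of 3.83 to 8.83. The 12 could not change, because the same 12 genes were hit in at least 2 and in all 3 cKO libraries. Dropping a library loosens "all" and "none" by construction. The cause of the other moves was not tested.

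Deviations over genes of same-numbered WT and cKO mice had correlations of -0.059, -0.172 and -0.023, and those of differently numbered mice ran from -0.0945 to 0.129. With 3 libraries per group, these values cannot tell whether the numbers pair the mice. The libraries were treated as unpaired. With the replicate block the difference was 6.67, the same by construction. Depth is unknown, so weak sites may be missed.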
